A study of Mus musculus with 4 samples.

Results

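The cells described here are skeletal muscle fibroblasts that carried transcripts of Dpp4, Sema3c and Efhd1. They numbered 1687 of 28163 barcodes (5.99%) and made up 14.91% of the 11314 non-cycling fibroblasts of the series. They were chosen by measured values in the same libraries. A barcode entered with at least 1000 unique molecular identifiers (UMIs), at least 500 genes and at most 15% mitochondrial UMIs. It counted as a fibroblast with at least 4 UMIs of Pdgfra, Lum, Dpt and Col6a3 together, at most 1 UMI of the leukocyte and endothelial genes Ptprc, Csf1r, Cdh5 and Pecam1 together, and 0 UMIs of the cycling genes Top2a and Mki67. It passed the gate with at least 3 UMIs of Dpp4, Sema3c and Efhd1 together. Barcodes past the gate are called gated fibroblasts, and the 9627 fibroblasts that did not reach it are called other fibroblasts.

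Mononuclear cells had been isolated from the diaphragm and the quadriceps of mdx5cv mice, which carry a mutated dystrophin gene and model Duchenne muscular dystrophy, and of wild-type (WT) mice, all aged 14 weeks. The cells were frozen, thawed and sequenced as 1 droplet library for each genotype and muscle, 4 libraries in all. The labels give neither the number of animals behind a library nor the strain of the WT mice. Each group is 1 library, so differences could not be checked in replicates and no p-value was computed.

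Fibroblasts that express Dpp4 and Pi16 are known in many mouse tissues, where they lie in fascia, reticular interstitium and the adventitia of vessels rather than among the parenchymal cells. They have been described as a progenitor-like state from which more specialised fibroblasts can arise, and in skeletal muscle as a subset of the fibro/adipogenic progenitors. Col15a1-expressing fibroblasts are their counterpart in the parenchyma. DPP4 is a surface protease that trims chemokines and hormones, Sema3c encodes a secreted semaphorin that binds neuropilins and plexins, and Efhd1 encodes a calcium-binding protein of mitochondria.

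The libraries held 49612759 UMIs in mdx5cv and 40226833 in WT diaphragm, and 62780685 in mdx5cv and 18837891 in WT quadriceps. After filtering, pairs of libraries shared 5 to 17 cell barcodes, and no gated fibroblast of a library had a barcode of a gated fibroblast of another. A gated fibroblast held a median of 6657 UMIs in mdx5cv and 5812 in WT diaphragm, and 5590 in mdx5cv and 4210 in WT quadriceps. Other fibroblasts held 4758.5 in mdx5cv and 4319.5 in WT diaphragm, and 5007 in mdx5cv and 3205 in WT quadriceps. Levels are given as CPM, the UMIs of a gene summed over the cells of a group and divided by all UMIs of that group, scaled to a total of 1000000. Intervals in brackets are exact 95% intervals. They hold the error of counting alone, not the spread between cells, animals or preparations. A gene was tested with at least 20 CPM and 10 UMIs in the higher group, and was called when it also differed by at least 2-fold with an interval of the ratio that excluded 1.

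Gated fibroblasts took a smaller share of the fibroblasts in mdx5cv than in WT muscle, and a smaller share in diaphragm than in quadriceps. In diaphragm 93 of 2977 fibroblasts passed in mdx5cv, 3.12% (2.53 to 3.81), and 1147 of 6117 in WT, 18.8% (17.8 to 19.8). In quadriceps 143 of 1380 passed in mdx5cv, 10.4% (8.80 to 12.1), and 304 of 840 in WT, 36.2% (32.9 to 39.5). As a share of all barcodes they were 1.26% in mdx5cv and 15.3% in WT diaphragm, and 1.72% in mdx5cv and 6.19% in WT quadriceps. The gate counts raw UMIs, so deeper cells pass it more easily. With every barcode thinned to 2000 UMIs and shallower ones left out, the shares of fibroblasts were 1.09% in mdx5cv and 5.14% in WT diaphragm, and 3.97% in mdx5cv and 21.3% in WT quadriceps. The order of the 4 libraries was the same. Fibroblasts left out for fewer than 2000 UMIs numbered 167 in mdx5cv and 228 in WT diaphragm, and 92 in mdx5cv and 77 in WT quadriceps. The fibroblast, leukocyte, endothelial and cycling limits were also read on the thinned counts, so the thinned fibroblasts are not the same set. They numbered 2855 in mdx5cv and 5582 in WT diaphragm, and 1385 in mdx5cv and 677 in WT quadriceps. Fewer cells of this kind and fewer of these transcripts per cell cannot be told apart by a gate on the transcripts themselves.

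**Figure D1:**
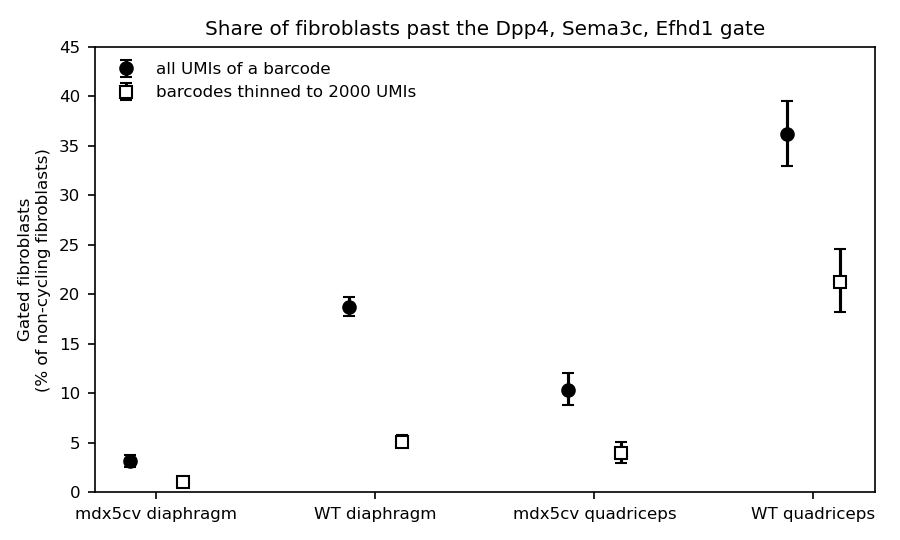
Share of non-cycling fibroblasts past the Dpp4, Sema3c and Efhd1 gate in each library, in percent, with exact 95% binomial intervals. Filled circles use all UMIs of a barcode and open squares use barcodes thinned to 2000 UMIs; WT quadriceps is highest, at 36.2% and 21.3%, and mdx5cv diaphragm lowest, at 3.12% and 1.09%.

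Sema3c was the gate gene most often present. It had a UMI in 95.7% of gated fibroblasts in mdx5cv and 89.9% in WT diaphragm, and in 98.6% in mdx5cv and 93.8% in WT quadriceps. Dpp4 was present in 68.8% in mdx5cv and 69.7% in WT diaphragm, and in 67.1% in mdx5cv and 84.9% in WT quadriceps. Efhd1 was present in 65.6% in mdx5cv and 66.9% in WT diaphragm, and in 55.2% in mdx5cv and 81.6% in WT quadriceps. All 3 genes were present together in 38.7% in mdx5cv and 39.4% in WT diaphragm, and in 46.9% in mdx5cv and 64.8% in WT quadriceps. The summed level of Dpp4 in gated fibroblasts was 249 CPM in mdx5cv and 242 CPM in WT diaphragm, and 216 CPM in mdx5cv and 567 CPM in WT quadriceps. Sema3c stood at 609 CPM in mdx5cv and 473 CPM in WT diaphragm, and at 717 CPM in mdx5cv and 1044 CPM in WT quadriceps. Efhd1 stood at 183 CPM in mdx5cv and 228 CPM in WT diaphragm, and at 171 CPM in mdx5cv and 487 CPM in WT quadriceps. WT quadriceps thus held the highest level of each gate gene. These are the values that chose the cells and carry no comparison.

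Pi16, which encodes a secreted peptidase inhibitor of the CAP family and was not part of the gate, was used to check the name. In diaphragm its level in gated against other fibroblasts was 2604 against 560 CPM in mdx5cv, 4.65-fold (4.42 to 4.89), and 3555 against 1647 CPM in WT, 2.16-fold (2.12 to 2.19). In quadriceps it was 1517 against 103 CPM in mdx5cv, 14.7-fold (13.5 to 16.0), and 3625 against 192 CPM in WT, 18.9-fold (17.0 to 21.1). At 2000 UMIs a barcode, a Pi16 UMI was found in 90.1% of gated and 51.5% of other fibroblasts in mdx5cv diaphragm, and in 94.4% of gated and 80.4% of other fibroblasts in WT diaphragm. In quadriceps it was found in 64.7% of gated and 12.2% of other fibroblasts in mdx5cv, and in 78.2% of gated and 13.6% of other fibroblasts in WT. Barcodes with at least 2 UMIs of leukocyte or of endothelial genes were read as a background. Whether Pi16 in them came from free RNA or from a fibroblast in the same barcode was not tested. In WT diaphragm the 4 fibroblast genes of the rule summed to 2384 CPM in endothelial-gated barcodes and 3642 CPM in gated fibroblasts. Among leukocyte-gated barcodes, also thinned to 2000 UMIs, a Pi16 UMI was found in 4.05% in mdx5cv and 14.0% in WT diaphragm and in 1.67% in mdx5cv and 1.20% in WT quadriceps. Among endothelial-gated barcodes thinned alike, the shares were 8.06% in mdx5cv and 43.8% in WT diaphragm and 2.13% in mdx5cv and 5.68% in WT quadriceps. These endothelial shares rested on 248 barcodes in mdx5cv and 73 in WT diaphragm, and 282 in mdx5cv and 1003 in WT quadriceps. Before thinning, with shallower barcodes included, median depths were 4011 to 6086 UMIs in leukocyte-gated and 1747.5 to 2916 UMIs in endothelial-gated barcodes. In WT diaphragm, the library with the smallest Pi16 ratio, barcodes of 10 to 100 UMIs held Pi16 at 1992 CPM. The part of this background in that ratio was not tested.

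Pi16 was higher in the upper than in the lower classes of the gate sum, and Col15a1 was lower. At 10 or more gate UMIs, Pi16 reached 3368 CPM in mdx5cv and 5255 CPM in WT diaphragm, and 3574 CPM in mdx5cv and 5229 CPM in WT quadriceps. Fibroblasts with 0 gate UMIs had 515 CPM in mdx5cv and 1401 CPM in WT diaphragm, and 85.3 CPM in mdx5cv and 108 CPM in WT quadriceps. Col15a1 stood at 124 CPM in mdx5cv and 197 CPM in WT diaphragm, and at 22.6 CPM in mdx5cv and 19.5 CPM in WT quadriceps, in cells with 10 or more gate UMIs. With 0 gate UMIs it stood at 1193 CPM in mdx5cv and 969 CPM in WT diaphragm, and at 786 CPM in mdx5cv and 1034 CPM in WT quadriceps. The gate has no gap at its threshold. Just inside it, at 3 gate UMIs, Pi16 was 2058 CPM in mdx5cv and 2692 CPM in WT diaphragm, and 250 CPM in mdx5cv and 1007 CPM in WT quadriceps. Just outside it, at 2 gate UMIs, Pi16 was 1409 CPM in mdx5cv and 2218 CPM in WT diaphragm, and 276 CPM in mdx5cv and 259 CPM in WT quadriceps. Cells at exactly 3 UMIs numbered 20 in mdx5cv and 330 in WT diaphragm, and 35 in mdx5cv and 43 in WT quadriceps.

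**Figure D2:**
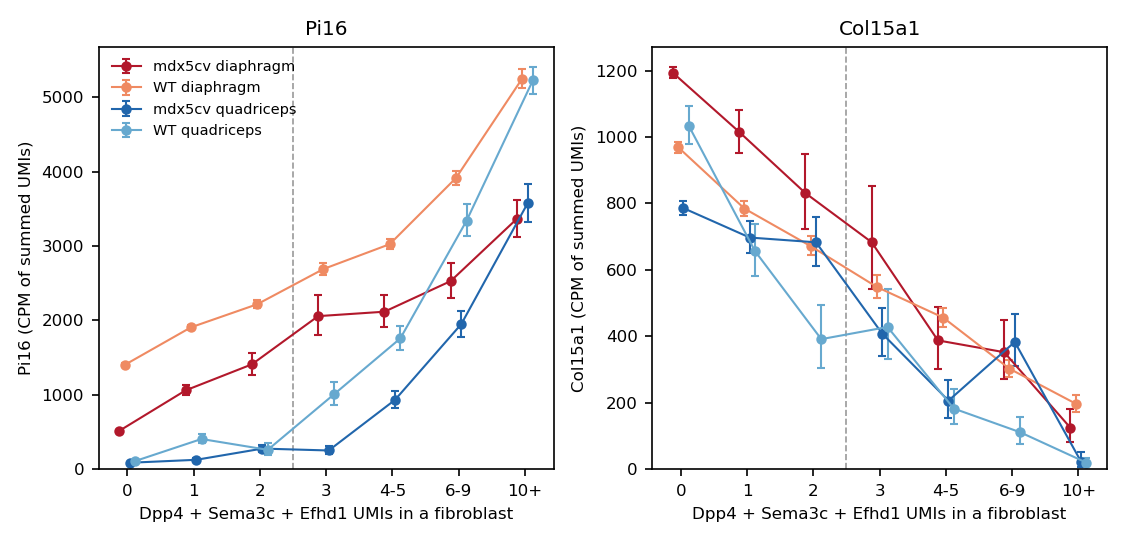
Pi16 (left) and Col15a1 (right) in CPM of summed UMIs, for fibroblasts grouped by their Dpp4, Sema3c and Efhd1 UMI sum, 1 line a library, with exact 95% intervals of the counts. The dashed line marks the gate; at 10 or more gate UMIs Pi16 lies between 3368 and 5255 CPM and Col15a1 between 19.5 and 197 CPM.

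A subset of the gated fibroblasts in mdx5cv quadriceps went against the name. There 36 of the 143 cells (25.2%) passed on Sema3c alone, against 8 (2.63%) in WT quadriceps, and 7 (7.53%) in mdx5cv and 108 (9.42%) in WT diaphragm. In mdx5cv quadriceps Pi16 was 515 CPM in the cells with Sema3c alone and 2025 CPM in the 107 gated cells with Dpp4 or Efhd1, against 103 CPM in other fibroblasts. Cd55, a complement-decay accelerating surface protein, was 67.5 CPM with Sema3c alone, 300 CPM with Dpp4 or Efhd1 and 40.2 CPM in other fibroblasts. Matrix genes went the other way. Postn, which encodes periostin, was 9006 CPM with Sema3c alone, 2214 CPM with Dpp4 or Efhd1 and 3540 CPM in other fibroblasts. Tnc, which encodes tenascin-C, was 1109 CPM with Sema3c alone, 94.3 CPM with Dpp4 or Efhd1 and 638 CPM in other fibroblasts. Col1a1 was 19482 CPM with Sema3c alone, 7962 CPM with Dpp4 or Efhd1 and 10845 CPM in other fibroblasts. Among genes of tendon fibroblasts, Thbs4 was 5756 CPM with Sema3c alone, 1842 CPM with Dpp4 or Efhd1 and 3111 CPM in other fibroblasts, and Fmod was 1086, against 364 CPM with Dpp4 or Efhd1 and 332 CPM in other fibroblasts. These 36 cells were split off after the data had been seen, and leaving such cells out of every library changed several results, which are given beside the values they touch.

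Markers of other cell types were read in the gated fibroblasts of each library. Of 8 endothelial markers, 5 were detected in mdx5cv and 6 in WT diaphragm, and 2 in mdx5cv and 7 in WT quadriceps, and their sum ranged from 3.79 to 86.6 CPM, with Cldn5 at 0 in all 4 libraries. Of 10 macrophage and monocyte markers 9 were detected in mdx5cv and WT diaphragm, 10 in mdx5cv and 8 in WT quadriceps, and they summed to 84.5 CPM in mdx5cv and 20.8 CPM in WT diaphragm and to 369 CPM in mdx5cv and 66.1 CPM in WT quadriceps, with Adgre1 at 0 in all but mdx5cv quadriceps. The 8 tenocyte markers, of which 6 to 8 were detected, summed to 1209 CPM in mdx5cv and 844 CPM in WT diaphragm and to 4283 CPM in mdx5cv and 193 CPM in WT quadriceps. Kera, a cornea and tendon proteoglycan, was at 0 in both diaphragm libraries and Scx, a tendon transcription factor, at 0 in mdx5cv diaphragm. The 8 mesothelial markers summed to 170 CPM in mdx5cv and 122 CPM in WT diaphragm and to 0 CPM in mdx5cv and 8.35 CPM in WT quadriceps. In other fibroblasts the mesothelial sum was 43.7 CPM in mdx5cv and 82.8 CPM in WT diaphragm. The 8 myofibre markers summed to 24.4 CPM in mdx5cv and 17.7 CPM in WT diaphragm and to 322 CPM in mdx5cv and 8.35 CPM in WT quadriceps, against 104 CPM in other fibroblasts of mdx5cv quadriceps. There 132 of the 168 UMIs of Acta1, an actin of muscle fibres, came from 1 cell. The 8 muscle stem cell markers summed to 1.43 CPM in mdx5cv and 13.8 CPM in WT diaphragm and to 135 CPM in mdx5cv and 41.8 CPM in WT quadriceps. The sums of 8 pericyte markers lay between 30.1 and 94.7 CPM, those of 8 Schwann cell markers between 8.59 and 29.6 CPM with Sox10 at 0 in all 4 libraries, and those of 8 lymphocyte markers between 0.759 and 11.1 CPM. The part of these transcripts in the results was not tested.

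Cells of the gate overlapped with other fibroblast gates of the same libraries. Of the gated fibroblasts, 23.7% in mdx5cv and 23.8% in WT diaphragm, and 25.2% in mdx5cv and 11.5% in WT quadriceps, also met a Tnmd and Sfrp4 gate. They made up 6.36% of that gate in mdx5cv and 26.0% in WT diaphragm, and 20.5% in mdx5cv and 40.2% in WT quadriceps. Overlap with a Col6a5 and Fbln7 gate was 32.3% of the gated fibroblasts in mdx5cv and 4.10% in WT diaphragm, and 17.5% in mdx5cv and 0.329% in WT quadriceps. As a share of that gate it was 2.04% in mdx5cv and 13.3% in WT diaphragm, and 5.67% in mdx5cv and 3.85% in WT quadriceps. Overlap with an Hsd11b1, Gfra1 and Mme gate was 1.08% in mdx5cv and 5.75% in WT diaphragm, and 6.29% in mdx5cv and 4.93% in WT quadriceps. As a share of that gate it was 0.862% in mdx5cv and 6.92% in WT diaphragm, and 4.97% in mdx5cv and 8.93% in WT quadriceps.

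Against other fibroblasts, the gated cells held more Krtdap, Dmkn, Sbsn, Wnt10b and Cmah and less Col15a1, Cxcl14 and Mgp in every library. The contrast follows from the gate and is given as a description. In mdx5cv diaphragm 5.65% of the tested genes were called higher and 4.37% lower in gated fibroblasts, and in WT diaphragm 2.49% were higher and 1.62% lower. In mdx5cv quadriceps 3.27% were called higher and 1.94% lower, and in WT quadriceps 5.32% were higher and 7.33% lower. Of 5523 genes tested in all 4 libraries, 82 (1.48%) were called higher in each of them and 22 (0.398%) were called lower in each.

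Krtdap, Dmkn and Sbsn, which encode small secreted proteins known from the differentiating layers of the epidermis, had ratios among the largest of the named genes in at least 1 library. They are protein-coding neighbours on the plus strand of chromosome 7, within 39.6 kb (GRCm38, 30751471 to 30791097). Krtdap stood at 196 CPM in gated against 4.33 CPM in other fibroblasts of mdx5cv diaphragm and at 166 against 3.71 CPM in WT diaphragm. In quadriceps it stood at 45.5 CPM in gated fibroblasts of mdx5cv, where the other fibroblasts had 0 UMIs (at least 119-fold higher, taking 3 UMIs as the floor), and at 728 against 2.75 CPM in WT. Dmkn stood at 126 against 0.962 CPM in mdx5cv and 29.7 against 0.850 CPM in WT diaphragm, and at 57.8 against 0.254 CPM (2 UMIs, interval of the ratio 60.4 to 1922) in mdx5cv and 225 against 2.20 CPM in WT quadriceps. Sbsn stood at 318 against 11.8 CPM in mdx5cv and 151 against 15.03 CPM in WT diaphragm, and at 100 against 6.47 CPM in mdx5cv and 550 against 11.6 CPM in WT quadriceps. The 3 genes were carried by part of the gated cells. Krtdap had a UMI in 24.7% of them in mdx5cv and 16.3% in WT diaphragm, and in 11.9% in mdx5cv and 36.2% in WT quadriceps. At 2000 UMIs these shares were 17.6% in mdx5cv and 12.4% in WT diaphragm, and 8.09% in mdx5cv and 31.6% in WT quadriceps. Among endothelial-gated barcodes they were 0% in mdx5cv and 2.74% in WT diaphragm, and 0% in mdx5cv and 1.79% in WT quadriceps. No library stood at 0 for any of the 3 genes in gated fibroblasts, and WT quadriceps was highest for each.

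The sequences before the starts of these neighbours are shown because all 3 genes moved together between gated and other fibroblasts in every library. Each run gives the 250 bases before a transcription start from RefSeq on GRCm38.p6, 5′ to 3′, with the letters TGANTCA and, in Krtdap, TATAAA in capitals.
Krtdap, chr7:30787655-30787904, plus strand: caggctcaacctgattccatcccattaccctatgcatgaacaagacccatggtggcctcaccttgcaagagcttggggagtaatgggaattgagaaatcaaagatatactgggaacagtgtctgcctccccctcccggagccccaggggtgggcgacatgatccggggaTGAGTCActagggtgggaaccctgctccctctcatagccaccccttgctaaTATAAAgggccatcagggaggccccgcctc
Dmkn, chr7:30763506-30763755, plus strand: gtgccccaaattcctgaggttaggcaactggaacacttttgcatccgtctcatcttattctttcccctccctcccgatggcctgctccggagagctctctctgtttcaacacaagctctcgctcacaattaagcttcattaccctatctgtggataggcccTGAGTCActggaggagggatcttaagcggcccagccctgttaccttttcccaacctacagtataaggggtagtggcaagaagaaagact
Sbsn, chr7:30751221-30751470, plus strand: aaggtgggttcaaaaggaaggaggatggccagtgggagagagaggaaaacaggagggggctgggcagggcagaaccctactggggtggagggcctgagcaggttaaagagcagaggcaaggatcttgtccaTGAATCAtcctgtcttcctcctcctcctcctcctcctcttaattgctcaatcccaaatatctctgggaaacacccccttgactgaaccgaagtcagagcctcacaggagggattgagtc
TGANTCA lay 81 bases before the start in Krtdap, 89 bases before it in Dmkn and 119 bases before it in Sbsn. TATAAA lay 30 bases before the Krtdap start. The search covered 5 motifs on both strands in 32851 promoter windows of 250 bases, which were TGANTCA as read by AP-1 factors, TGACGTCA as read by CREB factors, the TATA box letters TATAAA, the letters GGAATG read by TEAD factors and the E-box letters CACGTG. None of these motifs contains another. Of the 20 named higher genes 17 had an entry, with 23 windows. A gene counted if any of its windows held the motif, whereas the shares are of windows, so these are unlike measures. TGANTCA was in 5 genes (Dmkn, Krtdap, Procr, Rorb and Sbsn) and in 6.75% of all windows. TATAAA was in 3 genes against 12.4% of all windows, GGAATG in 2 against 12.6%, and TGACGTCA and CACGTG in 0 against 1.55% and 6.02%. A match is a string of letters in the window and was not tested as a binding site.

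Ligands and other secreted factors of the gated fibroblasts included Wnt10b, a Wnt ligand known to hold back fat cell formation. Wnt10b stood at 37.2 against 0.421 CPM in gated and other fibroblasts of mdx5cv diaphragm and at 51.5 against 4.88 CPM in WT diaphragm. In quadriceps it stood at 37.0 against 0.508 CPM in mdx5cv and at 102 against 2.20 CPM in WT. The smallest of the 4 ratios was 10.6-fold. Il18, an inflammasome-processed cytokine, was 5.92- to 14.8-fold higher over the 4 libraries. Igfbp5, which binds insulin-like growth factors, was the most abundant of the named higher genes, at 1291 against 170 CPM in mdx5cv and 1129 against 241 CPM in WT diaphragm, and at 2291 against 482 CPM in mdx5cv and 4910 against 799 CPM in WT quadriceps. Sema3d, a further secreted semaphorin, was 35.8 against 2.04 CPM in mdx5cv and 47.4 against 19.9 CPM in WT diaphragm, and 21.8 against 2.79 CPM in mdx5cv and 52.4 against 7.16 CPM in WT quadriceps.

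Among surface proteins and receptors, Procr, the protein C receptor that marks several progenitor populations, was 4.40- to 18.1-fold higher. Ackr1, a chemokine-scavenging receptor known from venules and red cells, was 4.26- to 17.1-fold higher. Endothelial-gated barcodes had been kept out by the rule. Cd248, the stromal antigen endosialin, was 796 against 97.5 CPM in mdx5cv and 551 against 194 CPM in WT diaphragm, and 543 against 134 CPM in mdx5cv and 662 against 162 CPM in WT quadriceps. It and Tek were the members called higher in all 4 libraries among 13 stem and progenitor surface antigens tested in each, and the other 11 were not. Tek, the angiopoietin receptor, was 63.0 against 7.15 CPM in mdx5cv and 103 against 42.9 CPM in WT diaphragm, and 107 against 17.3 CPM in mdx5cv and 229 against 69.9 CPM in WT quadriceps. Ly6a, which encodes the progenitor antigen Sca-1, was called higher in 3 libraries and was 3233 against 1953 CPM in WT diaphragm, below 2-fold.

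Several enzyme genes were named by the rule. Cmah, the hydroxylase that makes N-glycolylneuraminic acid, was 73.1 against 1.44 CPM in mdx5cv and 67.2 against 5.64 CPM in WT diaphragm, and 69.2 against 3.81 CPM in mdx5cv and 85.8 against 1.65 CPM in WT quadriceps. Ugdh, which supplies the glucuronic acid of hyaluronan and other glycosaminoglycans, was 580 against 107 CPM in mdx5cv and 793 against 191 CPM in WT diaphragm, and 468 against 116 CPM in mdx5cv and 601 against 119 CPM in WT quadriceps. Chst1, a keratan sulfate sulfotransferase, was 6.90- to 44.9-fold higher and Smpd3, neutral sphingomyelinase, 4.16- to 57.4-fold higher. The remaining named genes were Krt80, Rorb, Uchl1, Aif1l, Limch1, Adgrg2, Opcml and Sytl2. Their ratios ran from 3.50-fold (Sytl2, mdx5cv quadriceps) to 29.1-fold (Rorb, mdx5cv quadriceps).

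Genes lower in gated fibroblasts in every library included the parenchymal marker Col15a1, at 345 against 1177 CPM in mdx5cv and 395 against 879 CPM in WT diaphragm, and at 271 against 766 CPM in mdx5cv and 121 against 883 CPM in WT quadriceps. Cxcl14, a chemokine of resting fibroblasts, was 22.9 against 417 CPM in mdx5cv and 69.6 against 585 CPM in WT diaphragm, and 603 against 2332 CPM in mdx5cv and 113 against 2324 CPM in WT quadriceps. Mgp, an inhibitor of calcification, was 1271 against 5457 CPM in mdx5cv and 717 against 2418 CPM in WT diaphragm, and 4144 against 9482 CPM in mdx5cv and 109 against 2486 CPM in WT quadriceps. Hsd11b1, which regenerates active glucocorticoid, was 2.49- to 6.54-fold lower, and Meox1, a homeobox factor of fibroblasts, 2.24- to 7.17-fold lower. Bmp5, Lsamp, Adcyap1r1, Ccbe1, Fbln7, Cp and Gpm6b were lower as well, by 2.0-fold (Gpm6b, WT diaphragm) to 18.1-fold (Fbln7, WT quadriceps).

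**Figure D3:**
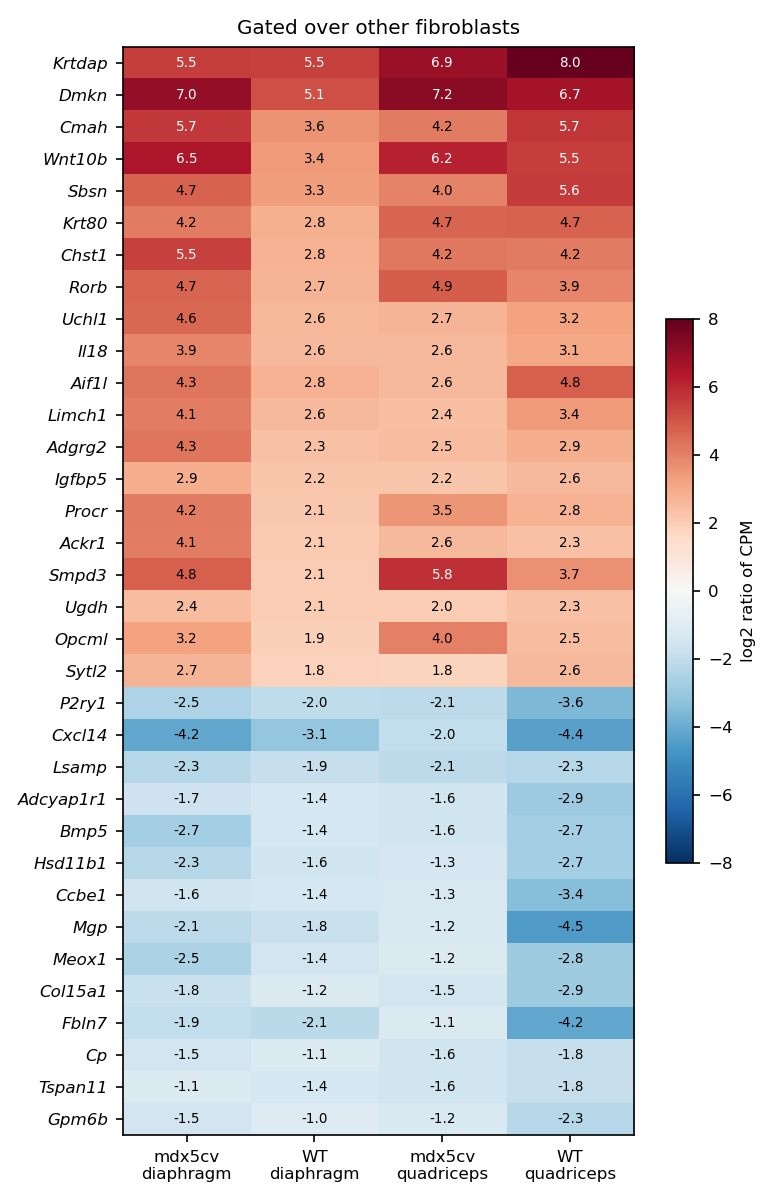
Log2 ratio of CPM, gated over other fibroblasts, for 34 genes named by rule (rows) in each library (columns), with a count under 3 UMIs set to 3. The 20 genes above are higher and the 14 below are lower in every library, by a contrast that the gate itself made.

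A list of 30 genes of the Pi16 and Dpp4 fibroblast state, chosen with earlier results of these data known, was called higher in gated fibroblasts for 28 of 30 tested in mdx5cv and 20 of 29 in WT diaphragm, and for 24 of 27 in mdx5cv and 27 of 30 in WT quadriceps. No member was called lower. Its median log2 ratio was 2.70 in mdx5cv and 1.39 in WT diaphragm, and 2.40 in mdx5cv and 2.36 in WT quadriceps, where the medians of all genes lay between -0.0579 and 0.0145. The 17 members called in all 4 libraries included Pi16, Cd55, Anxa3, a phospholipid-binding annexin, Efemp1, which encodes fibulin-3, Pcolce2, a procollagen C-proteinase enhancer, Ackr3, a CXCL12-scavenging receptor, and Creb5, a transcription factor. Of 20 parenchymal genes 13 were called lower in mdx5cv and 11 in WT diaphragm, and 9 in mdx5cv and 20 in WT quadriceps, and Col15a1, Hsd11b1, Cxcl14 and Bmp5 in all 4. Ccl11, the eotaxin gene, was an exception, called higher in gated fibroblasts of mdx5cv diaphragm at 123 against 60.5 CPM. In the elastic fibre list, Fbn1, which encodes fibrillin-1, Efemp1 and Emilin2 were called higher in all 4 libraries, and Fbln7 and Vwa1 lower. Fbn1 stood at 2527 against 758 CPM in mdx5cv and 2081 against 772 CPM in WT diaphragm, and at 1942 against 969 CPM in mdx5cv and 2265 against 727 CPM in WT quadriceps. No member was called in the same direction in all 4 libraries among 17 proteoglycan, 13 Wnt and BMP, 17 TGF-beta, 15 interferon, 11 adipogenic and 22 stress genes tested in each. The Wnt and BMP list does not hold Wnt10b, higher in every library, or Bmp5, lower in every library. Of all genes 1.48% were called higher and 0.398% lower in all 4, so 0 in lists of this length is near that share.

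Between genotypes, gated fibroblasts of mdx5cv muscle held more transcripts of Postn, Cthrc1, Timp1, Col1a1, Col3a1 and Lox than those of WT muscle. Col1a1 and Col3a1 were called higher in other fibroblasts of mdx5cv as well, in both muscles. In diaphragm 3.8% of tested genes were called higher in mdx5cv and 3.53% lower. In quadriceps 9.93% were called higher and 6.02% lower. Of 6166 genes tested in both muscles, 111 (1.8%) were called higher and 55 (0.892%) lower in mdx5cv in both. Few cells lay behind some of these values. In 12 of the 111 higher genes, among them Tnc, Fmod, Comp and Col11a1, over 50% of the UMIs of a mdx5cv library came from 1 cell. For the 55 lower genes the same count over the WT libraries, where they were higher, was 0.

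Tnc and Postn, which encode matrix proteins of wound and tendon, were among the most changed. Postn had 1814 CPM in mdx5cv and 255 CPM in WT diaphragm, 7.12-fold higher (6.62 to 7.65), and 4500 CPM in mdx5cv and 101 CPM in WT quadriceps, 44.6-fold higher (37.5 to 53.3). A Postn UMI was present in 77.4% of gated fibroblasts in mdx5cv and 23.9% in WT diaphragm, and in 67.1% in mdx5cv and 17.4% in WT quadriceps. Tnc had 85.9 CPM in mdx5cv and 1.92 CPM in WT diaphragm, where 41 of the 60 UMIs in mdx5cv came from 1 cell. In quadriceps Tnc had 436 CPM in mdx5cv and 0.759 CPM (1 UMI) in WT, with an interval of the ratio of 102 to 22716. Without the 36 cells that passed on Sema3c alone, Postn was 2214 CPM and Tnc 94.3 CPM in mdx5cv quadriceps. WT quadriceps without its 8 such cells had 102 CPM of Postn and 0 UMIs of Tnc, and both genes were still called higher. Tenocyte markers, which summed to 4283 CPM in mdx5cv and 193 CPM in WT quadriceps, moved with these genes. Without the Sema3c-only cells, Thbs4 was 1842 CPM in mdx5cv and 22.7 CPM in WT quadriceps, Fmod 364 CPM in mdx5cv and 3.91 CPM in WT, and Tnmd 159 CPM in mdx5cv and 5.48 CPM in WT. Their part in the result was not tested.

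Cthrc1, which encodes a secreted collagen triple helix repeat protein of activated fibroblasts, had 249 CPM in mdx5cv and 15.5 CPM in WT diaphragm, 16.1-fold higher (12.6 to 20.6), and 281 CPM in mdx5cv and 0.759 CPM (1 UMI) in WT quadriceps, or 170 CPM in mdx5cv and 0.782 CPM in WT without the Sema3c-only cells. Timp1, an inhibitor of matrix metalloproteinases, had 831 CPM in mdx5cv and 75.1 CPM in WT diaphragm, 11.1-fold higher (9.82 to 12.5), and 1227 CPM in mdx5cv and 30.4 CPM in WT quadriceps, 40.4-fold higher (29.5 to 56.8), or 917 CPM in mdx5cv and 30.5 CPM in WT without those cells. Adam12, a membrane metalloproteinase of regenerating muscle, had 53.0 CPM in mdx5cv and 4.66 CPM in WT diaphragm and 71.1 CPM in mdx5cv and 1.52 CPM (2 UMIs) in WT quadriceps. Of the 22 genes of injury matrix and myofibroblasts 19 were tested in each muscle. In diaphragm 10 were called higher and 3 lower, with a median log2 ratio of 1.11 against 0.0381 for all genes. In quadriceps 15 were called higher and 1 lower, with a median of 3.41 against 0.0628, or 13 and 1 without the Sema3c-only cells. Ltbp2, Comp, Ccn4, Runx1 and Tpm2 completed the 10 genes called higher in both muscles, and Myl9, a myosin light chain of contractile cells, was lower in both. For each of Tnc, Comp and Tpm2, over 50% of the UMIs of a mdx5cv library came from 1 cell. Other fibroblasts showed 10 higher and 0 lower of 19 in diaphragm and 13 higher and 1 lower of 21 in quadriceps.

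Acta2 and Tagln were called in opposite directions in the 2 muscles. Acta2, smooth muscle actin, had 35.8 CPM in mdx5cv and 117 CPM in WT diaphragm, and 151 CPM in mdx5cv and 50.9 CPM in WT quadriceps. Tagln, which encodes transgelin, had 8.59 CPM in mdx5cv and 47.3 CPM in WT diaphragm, and 106 CPM in mdx5cv and 18.2 CPM in WT quadriceps. These transcripts sat in few cells. Acta2 had a UMI in 11.8% of gated fibroblasts in mdx5cv and 6.10% in WT diaphragm, and in 11.9% in mdx5cv and 6.58% in WT quadriceps, and 1 cell gave 71 of the 112 Tagln UMIs of mdx5cv quadriceps. Without the Sema3c-only cells Tagln was 22.9 CPM in mdx5cv and 18.8 CPM in WT quadriceps and was not called.

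Of the 20 collagen chains, 5 of 20 tested were called higher and 0 lower in mdx5cv diaphragm, and 12 of 19 higher and 1 lower in mdx5cv quadriceps, or 8 of 18 higher and 0 lower without the Sema3c-only cells. The median log2 ratio of the chains was 0.57 in diaphragm and 1.17 in quadriceps. Col1a1, the main fibrillar chain of scar, had 4527 CPM in mdx5cv and 1447 CPM in WT diaphragm, 3.13-fold higher (3.0 to 3.25), and 11840 CPM in mdx5cv and 2203 CPM in WT quadriceps, 5.37-fold higher (5.16 to 5.60), or 3.6-fold without the Sema3c-only cells. Col3a1 had 11364 CPM in mdx5cv and 5222 CPM in WT diaphragm, and 18149 CPM in mdx5cv and 6592 CPM in WT quadriceps. In other fibroblasts Col1a1 was 3.70-fold higher in mdx5cv diaphragm and 4.05-fold higher in mdx5cv quadriceps. Col3a1 was 2.85-fold and 2.59-fold higher there. Col11a1 and Col16a1 were the other chains called higher in both muscles, 4 of 19 in all. Of the 14 Col11a1 UMIs of mdx5cv diaphragm 12 came from 1 cell, and without the Sema3c-only cells it was not called in quadriceps. Col6a5 was called higher in diaphragm, at 275 CPM in mdx5cv and 50.2 CPM in WT, and had 3.79 CPM in mdx5cv and 6.08 CPM in WT quadriceps, below the level tested. Col8a1 was called higher in quadriceps, at 964 CPM in mdx5cv and 73.7 CPM in WT, and had 201 CPM in mdx5cv and 392 CPM in WT diaphragm.

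Of 18 genes of collagen processing 3 were called higher and 0 lower in mdx5cv diaphragm, and 8 higher and 1 lower in mdx5cv quadriceps, or 6 and 1 without the Sema3c-only cells. Lox, the cross-linking lysyl oxidase, had 321 CPM in mdx5cv and 128 CPM in WT diaphragm, 2.51-fold higher (2.16 to 2.91), and 640 CPM in mdx5cv and 57.7 CPM in WT quadriceps, 11.1-fold higher (8.74 to 14.3). P4ha3, a prolyl hydroxylase, and Fkbp10, a collagen chaperone, were the other members called higher in both muscles. Among proteases, Mmp14, the membrane collagenase, had 284 CPM in mdx5cv and 69.0 CPM in WT diaphragm, 4.11-fold higher (3.47 to 4.86), and 384 CPM in mdx5cv and 104 CPM in WT quadriceps, 3.69-fold higher (3.03 to 4.51). Mmp3, Mmp19 and Adamts15 were higher in both muscles, and Plau, urokinase, was lower in both. Fmod, Dlk1, H19 and Fbln7 were the remaining named genes higher in mdx5cv in both muscles. Of the 117 Fmod UMIs of mdx5cv diaphragm 107 came from 1 cell. Dlk1, an inhibitor of fat cell formation, had 25.8 CPM in mdx5cv and 1.23 CPM in WT diaphragm, and 46.4 CPM in mdx5cv and 0 UMIs in WT quadriceps (at least 20.4-fold higher). With the Sema3c-only cells left out it had 22.9 CPM in mdx5cv and 0 UMIs in WT quadriceps (at least 9.74-fold higher).

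**Figure D4:**
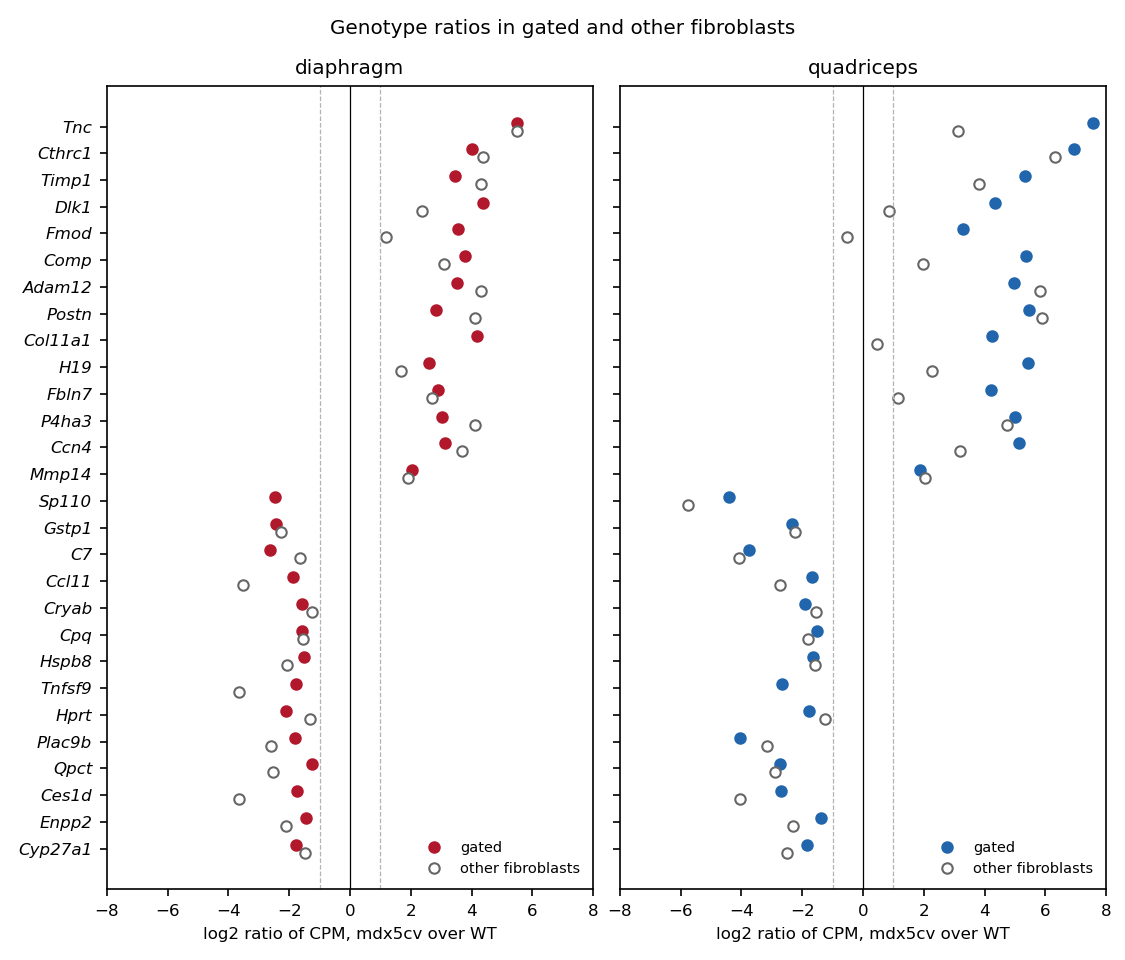
Log2 ratio of CPM, mdx5cv over WT, in diaphragm (left) and quadriceps (right) for the 28 genes named by rule, in gated (filled) and other (open) fibroblasts, with a count under 3 UMIs set to 3 and dashed lines at 2-fold. The upper 14 genes are right of 0 and the lower 14 left of it for gated fibroblasts in both muscles; an open point is missing where the gene was not tested in other fibroblasts.

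The genes of the Pi16 and Dpp4 state were called lower in mdx5cv more often in quadriceps than in diaphragm, a difference that was not tested. Genes that vary with the gate genes can differ here through the gate itself. Gated fibroblasts held a median of 6 gate UMIs in mdx5cv and 8 in WT quadriceps, and 6 in mdx5cv and 5 in WT diaphragm. At 10 or more gate UMIs, Pi16 was 3574 CPM in mdx5cv and 5229 CPM in WT quadriceps. The part of the gate in these genotype values was not tested. In quadriceps 0 of 30 were called higher and 21 lower, with a median log2 ratio of -1.29, or 16 lower with a median of -1.08 without the Sema3c-only cells. In diaphragm 1 of 30 was called higher and 3 lower, with a median of -0.14. Pi16 had 1517 CPM in mdx5cv and 3625 CPM in WT quadriceps, 2.39-fold lower (2.26 to 2.53), but was not called without the Sema3c-only cells, at 2025 CPM in mdx5cv and 3727.5 CPM in WT. In diaphragm Pi16 had 2604 CPM in mdx5cv and 3555 CPM in WT diaphragm, a 1.37-fold difference below the limit of a call. Anxa3 had 538 CPM in mdx5cv and 2162 CPM in WT quadriceps, 4.02-fold lower, and 476 CPM in mdx5cv and 765 CPM in WT diaphragm. Ackr3 and Stmn4 were called lower in both muscles. Ackr3 had 417 CPM in mdx5cv and 869 CPM in WT diaphragm, and 310 CPM in mdx5cv and 859 CPM in WT quadriceps. In other fibroblasts 14 of 22 tested members were lower in diaphragm and 12 of 21 in quadriceps, and 0 were higher in either muscle. Of all genes tested in other fibroblasts 4.36% were called lower in mdx5cv diaphragm and 6.12% in mdx5cv quadriceps.

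Of the 3 neighbouring genes on chromosome 7, Dmkn and Sbsn were called in opposite directions between genotypes in the 2 muscles. Sbsn had 318 CPM in mdx5cv and 151 CPM in WT diaphragm, 2.10-fold higher, and 100 CPM in mdx5cv and 550 CPM in WT quadriceps. Dmkn had 126 CPM in mdx5cv and 29.7 CPM in WT diaphragm, and 57.8 CPM in mdx5cv and 225 CPM in WT quadriceps. Krtdap had 196 CPM in mdx5cv and 166 CPM in WT diaphragm, under 2-fold, and 45.5 CPM in mdx5cv and 728 CPM in WT quadriceps. Without the Sema3c-only cells Sbsn in diaphragm was 305 CPM in mdx5cv and 161 CPM in WT and was not called.

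Among chemokines, cytokines and their receptors 4 of 20 tested were called higher and 7 lower in mdx5cv diaphragm, against 11 of 19 higher and 3 lower in mdx5cv quadriceps. Il1r1, the interleukin 1 receptor, was the member called higher in both muscles. Ccl11, Tslp, an alarmin, and Ackr3 were lower in both. Ccl11, which attracts eosinophils, had 123 CPM in mdx5cv and 447 CPM in WT diaphragm, 3.63-fold lower (2.93 to 4.55), and 310 CPM in mdx5cv and 993 CPM in WT quadriceps, 3.20-fold lower (2.84 to 3.63). Ccl2, which attracts monocytes, was lower in mdx5cv diaphragm at 93.1 CPM against 427 CPM in WT, and higher in mdx5cv quadriceps at 746 CPM against 112 CPM in WT. A Ccl2 UMI was in 11.8% of gated fibroblasts in mdx5cv and 12.7% in WT diaphragm, and in 11.2% in mdx5cv and 2.63% in WT quadriceps. Single cells gave 51 of its 65 UMIs in mdx5cv diaphragm, 355 of 787 in mdx5cv quadriceps and 124 of 148 in WT quadriceps. Macrophage markers, at a sum of 369 CPM in mdx5cv and 66.1 CPM in WT quadriceps, were higher in the same library as Ccl2, and their part in the result was not tested. In other fibroblasts these markers summed to 369 CPM in mdx5cv and 93.1 CPM in WT quadriceps. In gated fibroblasts of mdx5cv quadriceps 19 of the 29 UMIs of C1qa, a macrophage marker, came from 1 cell.

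Of 22 interferon response genes tested in each muscle, 8 were called higher and 0 lower in mdx5cv diaphragm, with a median log2 ratio of 0.81, and 5 higher and 1 lower in mdx5cv quadriceps, with a median of 0.55. Isg15, Ifit1 and Bst2 were higher in both muscles. Bst2, which tethers virus particles, had 295 CPM in mdx5cv and 98.0 CPM in WT diaphragm, 3.01-fold higher (2.57 to 3.52), and 242 CPM in mdx5cv and 110 CPM in WT quadriceps, 2.19-fold higher (1.78 to 2.71). Of the 11 complement genes tested in each muscle, Cfb, which encodes factor B, had 97.4 CPM in mdx5cv and 20.8 CPM in WT diaphragm, and 400 CPM in mdx5cv and 154 CPM in WT quadriceps. C4b was higher in both muscles too, but shares near-identical sequence with a paralogue. C7, a membrane attack component, had 14.3 CPM in mdx5cv and 88.3 CPM in WT diaphragm, 6.16-fold lower (3.33 to 12.9), and 5.68 CPM in mdx5cv and 75.9 CPM in WT quadriceps, 13.4-fold lower (5.93 to 37.3).

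In the remaining lists few members were called the same way in both muscles. Sfrp1, a Wnt inhibitor, and Bmper, a BMP-binding protein, were higher and Bmp2 lower in mdx5cv among 18 Wnt and BMP genes. Angptl4 and Mdk, which encodes midkine, were higher among 21 growth factor genes, and Nrp1, a semaphorin receptor, among 7 guidance genes. Dlk1 and Apoe were higher and Ces1d lower among 13 adipogenic genes, and Fmod was higher and Omd lower among 19 proteoglycan genes. Cyp1b1 was higher and Hsd11b1 and Tsc22d3, a glucocorticoid-induced gene, lower among 19 retinoid and glucocorticoid genes. Vcam1 was higher among 14 surface antigens, Runx1 among 26 transcription factors and Fbln7 among 17 elastic fibre genes. Of 18 TGF-beta pathway genes 0 were called the same way in both muscles. Of all genes 1.8% were called higher and 0.892% lower in both, so 0 of 18 is near that share.

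Several of the genes lower in mdx5cv gated fibroblasts were lower in other cells as well. Sp110, an interferon-induced nuclear body protein gene, had 0 UMIs in mdx5cv and 23.7 CPM in WT diaphragm (at least 5.52-fold lower), and 0 UMIs in mdx5cv and 60.0 CPM in WT quadriceps (at least 21.1-fold lower). In other fibroblasts Sp110 had 0 CPM in mdx5cv and 19.8 CPM in WT diaphragm and 0.254 CPM in mdx5cv and 20.4 CPM in WT quadriceps. In leukocyte-gated barcodes Sp110 had 0.599 CPM in mdx5cv and 41.8 CPM in WT diaphragm, and 0.102 CPM in mdx5cv and 48.2 CPM in WT quadriceps. Gstp1, a glutathione transferase, had 43.0 CPM in mdx5cv and 232 CPM in WT diaphragm, 5.39-fold lower, and 31.3 CPM in mdx5cv and 158 CPM in WT quadriceps, 5.05-fold lower. In leukocyte-gated barcodes Gstp1 had 21.4 CPM in mdx5cv and 97.0 CPM in WT diaphragm and 15.7 CPM in mdx5cv and 58.9 CPM in WT quadriceps. Gstp1, Sp110 and Plac9b have close copies in the mouse genome, so their counts depend on how reads were assigned. Hprt, a purine salvage enzyme gene, had 17.2 CPM in mdx5cv and 73.1 CPM in WT diaphragm, and 24.6 CPM in mdx5cv and 85.1 CPM in WT quadriceps. Cryab and Hspb8, small heat shock protein genes, Cpq, Tnfsf9, Qpct, Ces1d, Enpp2, which encodes autotaxin, and Cyp27a1, a sterol hydroxylase gene, were lower in both muscles by 2.36-fold (Qpct, diaphragm) to 6.66-fold (Qpct, quadriceps). Dmd itself, mutated in mdx5cv, had 28.6 CPM in mdx5cv and 36.3 CPM in WT diaphragm, and 37.9 CPM in mdx5cv and 40.2 CPM in WT quadriceps. Both intervals of its ratio included 1, and a 3′ tag does not read the mutation.

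The genotype ratio of gated fibroblasts was set against that of other fibroblasts for 5323 genes. It was greater in gated fibroblasts in both muscles for 135 genes and smaller for 53, by intervals of the ratio of ratios. The gate sets a lower limit for its genes in gated fibroblasts and an upper limit in the others. Genes that vary with the gate genes can therefore differ in this ratio through the gate itself. Smpd3 below is also a gene named as higher in gated fibroblasts. The part of the gate in these counts was not tested. Cxcl13, a B cell chemokine, differed most. It had 150 CPM in mdx5cv and 40.0 CPM in WT gated fibroblasts of diaphragm, and 114 CPM in mdx5cv and 76.7 CPM in WT of quadriceps. In other fibroblasts it had 5.05 CPM in mdx5cv and 16.1 CPM in WT diaphragm, and 3.30 CPM in mdx5cv and 45.7 CPM in WT quadriceps. The ratio of ratios was 12.01 in diaphragm and 20.53 in quadriceps. Cxcl13 sat in few gated cells. In diaphragm a UMI of it was in 11.8% of gated fibroblasts in mdx5cv and 4.71% in WT. In quadriceps these shares were 14.0% in mdx5cv and 8.22% in WT. The cell with the most Cxcl13 gave 34 of 105 UMIs in mdx5cv and 27 of 292 in WT diaphragm. In quadriceps the top cell gave 20 of 120 in mdx5cv and 23 of 101 in WT. Smpd3 had 135 CPM in mdx5cv and 80.5 CPM in WT diaphragm, and 168 CPM in mdx5cv and 517 CPM in WT quadriceps, in gated fibroblasts. In other fibroblasts Smpd3 had 4.81 CPM in mdx5cv and 19.4 CPM in WT diaphragm, and 2.92 CPM in mdx5cv and 40.2 CPM in WT quadriceps. Steap4, C4b and Bmper were further genes with a greater ratio. Aldh1a3, a retinoic acid synthesising enzyme, had the reverse pattern, with 140 CPM in mdx5cv and 52.9 CPM in WT diaphragm and 106 CPM in mdx5cv and 206 CPM in WT quadriceps in gated fibroblasts. In other fibroblasts Aldh1a3 had 109 CPM in mdx5cv and 6.4 CPM in WT diaphragm, and 19.7 CPM in mdx5cv and 11 CPM in WT quadriceps. Fmod was named by the same rule, but its ratio of ratios changed direction with the gate.

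Between muscles, gated fibroblasts of diaphragm differed from those of quadriceps in developmental regulators and in stress genes. In mdx5cv 3.01% of tested genes were called higher in diaphragm and 6.93% lower. In WT 4.81% were called higher and 4.63% lower. Of 6059 genes tested in both genotypes, 67 (1.11%) were called higher in diaphragm and 69 (1.14%) lower in both. In 2 of the 67 higher genes over 50% of the UMIs of a diaphragm library came from 1 cell. In 7 of the 69 lower genes, among them Fmod, Chad, Des and Lyz2, this held for a quadriceps library.

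Wt1, a zinc finger factor of mesothelium and of the embryonic diaphragm, had 81.7 CPM in diaphragm and 0 UMIs in quadriceps of mdx5cv (at least 28.7-fold higher), and 101 CPM in diaphragm and 0 UMIs in quadriceps of WT (at least 44.5-fold higher). A Wt1 UMI was found in 44.1% of gated fibroblasts of mdx5cv diaphragm and 40.1% of WT diaphragm. Of the other mesothelial markers, Msln and Upk1b reached 20 CPM or more in mdx5cv diaphragm, and none did in WT diaphragm. Wt1 was also present in other fibroblasts of diaphragm, at 39.3 CPM in mdx5cv and 72.0 CPM in WT. Gata6, a factor of visceral mesoderm, had 58.7 CPM in diaphragm and 2.84 CPM (3 UMIs) in quadriceps of mdx5cv, and 53.1 CPM in diaphragm and 5.32 CPM in quadriceps of WT. C1qtnf7, Rspo1, a Wnt agonist, and Col6a5 were higher in diaphragm in both genotypes.

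Of 9 Hox genes tested in both genotypes, Hoxa3, Hoxa5 and Hoxb2 were called higher in diaphragm in both, and Hoxa10, Hoxc6, Hoxc8, Hoxc9 and Hoxc10 lower in both. Hox genes record position along the body axis, low numbers toward the head. Hoxc10 had 0 UMIs in diaphragm and 105 CPM in quadriceps of mdx5cv (at least 24.5-fold lower), and 0 UMIs in diaphragm and 54.7 CPM in quadriceps of WT (at least 133-fold lower). Hoxa10 had 0 UMIs in diaphragm of both genotypes, with 46.4 CPM in mdx5cv and 44.0 CPM in WT quadriceps. Tbx15, a limb and trunk T-box factor, had 0 UMIs in diaphragm and 47.4 CPM in quadriceps of mdx5cv, and 0.823 CPM in diaphragm and 31.1 CPM in quadriceps of WT. Osr2 was lower and Meis2 higher in diaphragm in both genotypes. Among secreted proteins, Apod, a lipocalin, had 107 CPM in diaphragm and 641 CPM in quadriceps of mdx5cv, 5.97-fold lower (4.70 to 7.68), and 73.2 CPM in diaphragm and 403 CPM in quadriceps of WT, 5.51-fold lower (4.88 to 6.22). C4b, Il1r2, a decoy interleukin 1 receptor, Chrdl1 and Ecrg4 were also lower in diaphragm in both. Chad, a cartilage leucine-rich protein, was lower too, but all 31 of its UMIs in WT quadriceps came from 1 cell. Chad, Chrdl1 and Ecrg4 were not called in WT without the Sema3c-only cells.

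**Figure D5:**
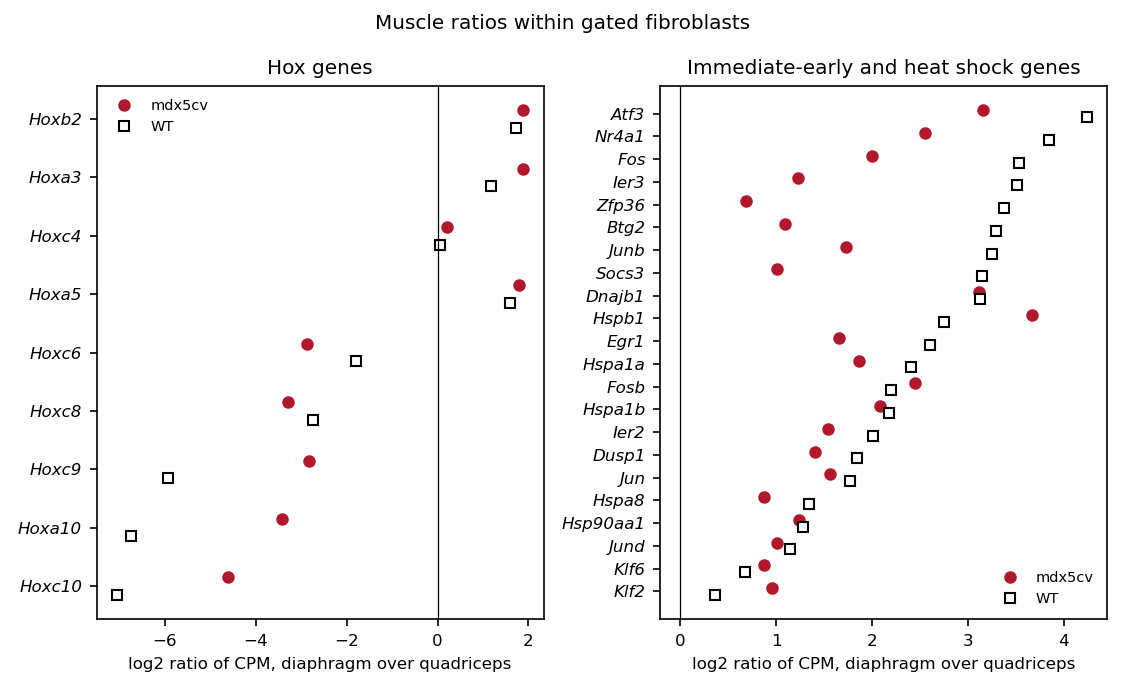
Log2 ratio of CPM, diaphragm over quadriceps, within gated fibroblasts of mdx5cv (filled circles) and WT (open squares), for Hox genes (left, ordered by number) and immediate-early and heat shock genes (right), with a count under 3 UMIs set to 3. Hoxc6 to Hoxc10 lie left of 0 and all 22 stress genes lie right of it in both genotypes.

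Immediate-early and heat shock genes, which respond to dissociation and handling as well as to signals in tissue, were higher in diaphragm. Of 22 genes tested 18 were called higher and 0 lower in mdx5cv, with a median log2 ratio of 1.55, and 20 higher and 0 lower in WT, with a median of 2.51. In mdx5cv 15 were higher without the Sema3c-only cells. Hspb1, a small heat shock protein gene, had 1758 CPM in diaphragm and 138 CPM in quadriceps of mdx5cv, 12.7-fold higher (10.7 to 15.2), and 2882 CPM in diaphragm and 428 CPM in quadriceps of WT, 6.74-fold higher (6.20 to 7.34). Atf3, a stress-induced transcription factor, had 238 CPM in diaphragm and 26.5 CPM in quadriceps of mdx5cv, and 603 CPM in diaphragm and 31.9 CPM in quadriceps of WT. Between genotypes 10 of the 22 were called lower in mdx5cv diaphragm and 4 lower in mdx5cv quadriceps, and 0 higher in either. Without the Sema3c-only cells 1 was lower in mdx5cv quadriceps, with a median of -0.12. In other fibroblasts 21 were lower in mdx5cv diaphragm and 13 in mdx5cv quadriceps, against 4.36% and 6.12% of all genes tested there. The part of these genes in the muscle and genotype differences was not tested.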

How the data were processed

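The deposited files hold counts, whole-number UMIs per gene and barcode, for 32285 genes in 4 libraries, unfiltered and not normalised. Per the submitters' processing notes the authors used Cell Ranger 5.0.0 and mm10, and per the file headers the matrices name Cell Ranger 4. Barcodes were filtered and gated on UMIs as the report states, with no doublet caller in the main values. CPM are a group's summed UMIs of a gene over its total, and ratios carry exact conditional 95% intervals, with 3 UMIs as the floor at 0. Shares carry exact binomial intervals. No unit of replication exists, so no test was run. Genes were named by rule: leaving out gate genes, mitochondrial, ribosomal, haemoglobin, Gm, Riken, Xist and Y-linked genes and those over 3 times higher in leukocyte- or endothelial-gated barcodes, the 20 higher and 14 lower genes with the most extreme smallest log2 ratio over the 4 libraries, 14 each way for genotype by the smaller bound nearest 1, 10 each way for muscle and 6 each way for the ratio of ratios. From the 21 gene lists and 11 marker lists, members are named where called in the same direction across parallel comparisons, or as examples. The members and lists were chosen with earlier results of these data known. The scripts were tested on simulated data. Gene positions come from GENCODE on GRCm38. Alternatives covered the mitochondrial limit, depth, thinning, the gate, lineage limits, doublets, the weight of cells and cells left out. Software was Python 3.11.15, numpy 2.4.6, scipy 1.17.1, pandas 2.3.3 and matplotlib 3.10.9. The values of 1 gene are not reported here.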

Additional observations from a re-analysis of the deposited data

Results flagged for a closer look

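In gated fibroblasts 5 genes were called higher in mdx5cv diaphragm and lower in mdx5cv quadriceps than in WT, and 15 the reverse. Of these 20, 12 that belong to a gene list or are named by rule are reported here, and their log2 ratios of mdx5cv over WT are given for diaphragm and then quadriceps. The difference was not tested. Lower in mdx5cv diaphragm and higher in mdx5cv quadriceps were Acta2 (-1.70 and 1.57), Aldh1a2 (-1.56 and 1.32), Angptl1 (-1.23 and 1.21), Ccl2 (-2.20 and 2.73), Ccn2 (-1.41 and 2.55), Crispld2 (-1.74 and 1.63), Cxcl14 (-1.60 and 2.41), Has1 (-1.23 and 1.94) and Tagln (-2.46 and 2.54). Higher in mdx5cv diaphragm and lower in mdx5cv quadriceps were Dact2 (1.02 and -2.92), Dmkn (2.08 and -1.96) and Sbsn (1.07 and -2.45). Without the Sema3c-only cells Dact2 and Sbsn were not called in diaphragm, nor Angptl1 and Tagln in quadriceps.

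Barcodes outside the fibroblast definition also reached the gate of 3 UMIs. They numbered 74 in mdx5cv and 76 in WT diaphragm, and 113 in mdx5cv and 87 in WT quadriceps, and entered no comparison. Fibroblasts with a Top2a or Mki67 UMI that reached the gate numbered 13 in WT diaphragm and 7 in mdx5cv quadriceps.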

How the results depend on the processing

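The lower share of gated fibroblasts in mdx5cv than in WT held in both muscles under each alternative run. Shares that moved beyond their interval were, after thinning to 2000 UMIs, 1.09% in mdx5cv and 5.14% in WT diaphragm, and 3.97% in mdx5cv and 21.3% in WT quadriceps. With a gate of 2 UMIs they were 4.50% in mdx5cv and 28.4% in WT diaphragm, and 15.1% in mdx5cv and 42.1% in WT quadriceps, and with a gate of 5, 1.88% in mdx5cv and 9.46% in WT diaphragm, and 6.81% in mdx5cv and 26.4% in WT quadriceps. With at most 5% mitochondrial UMIs they were 4.24% in mdx5cv and 21.7% in WT diaphragm, and 39.8% in WT quadriceps. With 6 gate UMIs per 10000 they were 2.52% in mdx5cv and 15.2% in WT diaphragm, and 8.41% in mdx5cv quadriceps. Without Sema3c-only cells they were 17.3% in WT diaphragm and 7.96% in mdx5cv quadriceps.

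The 22 genes lower than in other fibroblasts in all 4 libraries became 14 with a gate of 2, 44 with a gate of 5, 41 per 10000 UMIs, 34 with stricter lineage limits, 43 with cells weighted equally and 38 without Sema3c-only cells. After thinning, genes called for genotype in both muscles were 13 higher and 15 lower, against 111 and 55, and for muscle 27 higher and 28 lower, against 67 and 69. Genes with a smaller ratio of ratios were 19 after thinning, 91 per 10000 UMIs and 87 without Sema3c-only cells, against 53, and those with a greater one 203 per 10000 UMIs, against 135. The thinned values rest on fewer UMIs and on fewer gated cells, 31 in mdx5cv diaphragm and 55 in mdx5cv quadriceps. Of the thinned genotype genes, 11 of the 13 higher and 5 of the 15 lower were among the 111 and 55. Of the thinned muscle genes, 17 of the 27 higher and 11 of the 28 lower were among the 67 and 69. The cause of these changes was not tested.

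Of 2657 alternative values of named genes, 2084 stayed within the interval of the main value, 565 moved beyond it and 8 changed sign. A further 39 had no value because of low counts. After thinning, 5 of 41 genotype values and 6 of 32 muscle values stayed within their interval. Fmod had a ratio of ratios in diaphragm of -0.16 (log2) with a gate of 5, -2.04 per 10000 UMIs and -0.96 with stricter lineage limits, and in quadriceps of -1.53 with stricter limits. Its genotype ratio in diaphragm was -0.67 per 10000 UMIs. After thinning, Ces1d in diaphragm was 0.0408 for genotype, Rdh10 0.26 and Pamr1 0.14 for the ratio of ratios, in diaphragm for Rdh10 and in quadriceps for Pamr1. Leaving out Sema3c-only cells and leaving out WT quadriceps were chosen after seeing the data. No paired analysis was possible because each group has 1 library.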

Other observations

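Of the genes called in both genotypes between muscles, Cxcl1, Cxcl2 and Cxcl10, which encode chemokines for neutrophils and T cells, Pgf, a placental growth factor, and Bmp4 were higher in gated fibroblasts of diaphragm than of quadriceps. For Cxcl10 over 50% of the UMIs of a diaphragm library came from 1 cell. Dkk2, a Wnt antagonist, Mme, a surface endopeptidase, Vtn, which encodes vitronectin, and Vcam1, an adhesion molecule, were lower.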
